A study of Rattus norvegicus with 6 samples.

Results

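The biliary and ductular reaction genes described here are keratins, surface proteins, a transcription factor and a chloride channel of bile duct cells, set beside the keratins of hepatocytes. They were chosen by symbol as Krt7, Krt19, Krt8, Krt18, Epcam, Sox9, Cftr, Prom1 and Cd24, and each symbol matched a gene, which gave 9 of the 19616 genes in the table. All 9 passed the filter on low values, a mean of 0.1 FPKM or more (mapped fragments per length of transcript, relative to all mapped fragments of the library) over the rats. Liver RNA of male SD rats was sequenced, with 1 library per rat. The FL group (rats FL2, FL5 and FL12) had hepatic fibrosis after intraperitoneal CCl4 mixed with an equal part of olive oil, 2 mL per kg of body weight, 2 times a week for 5 weeks. Olive oil, in a volume matched to that of the FL injections, was given to the CL group (rats CL5, CL6 and CL7). Read totals were not used, and the depth of a library relative to CL5, the deepest, was 0.656 or more, read from the low values of U6 genes. The age of the rats was not given in the sources used here. CCl4 is turned into a toxic radical by cytochrome P450 in hepatocytes around the central vein, so the model injures hepatocytes and not the bile ducts directly.

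Cholangiocytes line the bile ducts and carry keratins 7 and 19, whereas hepatocytes build their filaments from keratins 8 and 18, which cholangiocytes carry as well. Keratins pair, a type I chain (Krt18, Krt19) with a type II chain (Krt7, Krt8). In chronic liver injury, small ductules can expand at the portal edge, the ductular reaction, and cells of these ductules can carry Sox9, Epcam, Prom1 and Cd24.

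Values per rat are given in the order CL5, CL6, CL7 for the CL rats and FL2, FL5, FL12 for the FL rats. The FL and CL groups were compared for each gene by limma on log2(FPKM + 0.1), a scale that understates the change of low genes. A gene was called when its adjusted p was under 0.05 and it differed at least 2-fold. Of the 9 members, 1 was called higher in the FL group, Cd24, against 9.29% of all 14864 genes tested, so the count was close to that share. Without FL2, where 12.3% of all genes were called higher, it was 3 (Cd24, Krt8 and Cftr). Without CL5 it was 1 (Krt8), and without CL6, CL7, FL5 or FL12 it was 0. For these rats the share of all genes was 4.59% to 6.47%. None was called lower (0 of 9 by limma, and 0 at an unadjusted p under 0.05), against 0.935% of all genes. At any fold, 3 members were higher at an adjusted p under 0.05 (Cd24, Krt8 and Krt18), where 16.9% of all genes were. The FL rats all lay above the CL rats in 5 members (Cd24, Krt8, Krt18, Cftr and Prom1), an order found in 35.7% of all genes. The opposite order was found in 0 members and in 4.78% of all genes. The median log2 difference over the 9 members was 0.86, against 0.29 over all genes. It was 0.36 against 0.19 with a pseudocount of 1, and 0.51 against -0.04 with quantile normalization. In bulk liver, fewer cells of a type and less RNA per cell cannot be told apart, and neither can more cells and more RNA per cell.

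**Figure D1:**
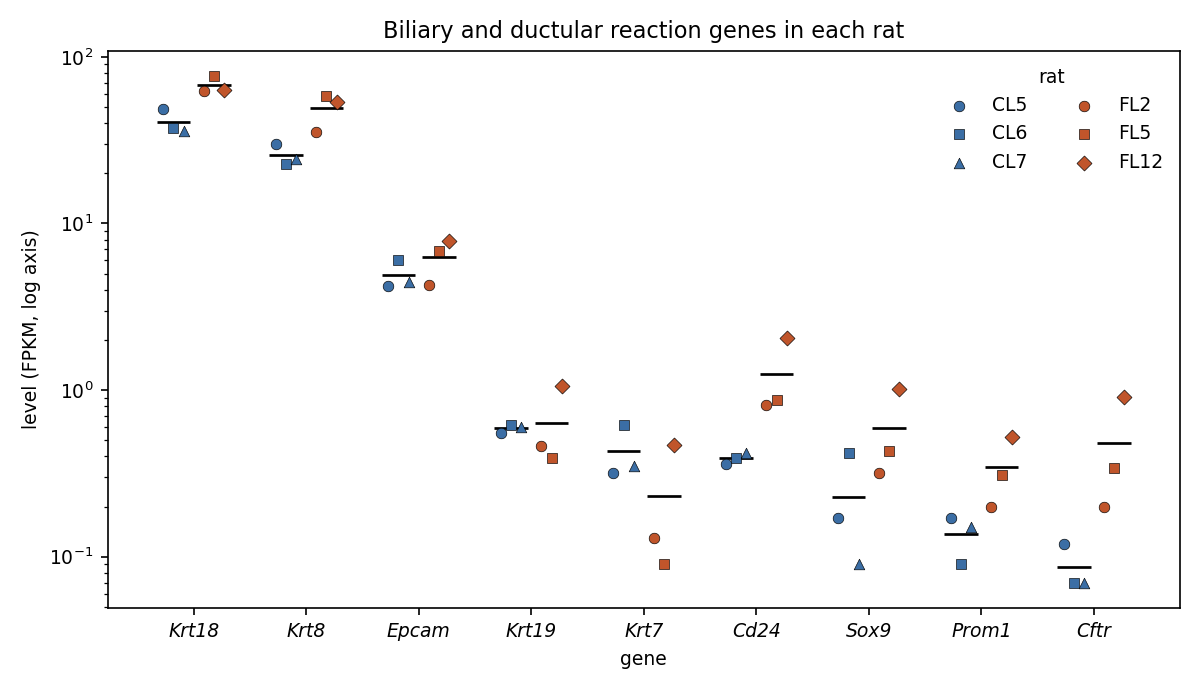
Level of each member in each rat, in FPKM on a log axis, with genes in the order of their CL mean. Each point is a rat, blue for CL and orange for FL, and each line is a group mean of 3 rats. The FL points lie above all CL points for Krt18, Krt8, Cd24, Prom1 and Cftr, and the groups overlap for Epcam, Krt19, Krt7 and Sox9.

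Krt19, the type I keratin most used to mark bile ducts (ENSRNOG00000014233, chromosome 10), was not called. It stood at 0.55, 0.62 and 0.60 FPKM in the CL rats, and at 0.46, 0.39 and 1.06 FPKM in the FL rats. FL2 and FL5 lay below every CL rat and FL12 above them, so the FL group enclosed the CL group. The group means were 0.590 ± 0.0361 and 0.637 ± 0.368 FPKM (SD, n = 3 each). The log2 difference was -0.01 (SE 0.35, 95% interval -0.83 to 0.80, adjusted p = 0.981 by limma). This interval takes in both lower and higher levels. The sign rested on single rats, since the log2 difference was 0.018 without CL6, 0.13 without FL2, 0.23 without FL5 and -0.40 without FL12, and -0.60 with quantile normalization.

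Krt7, the type II partner of Krt19 in bile ducts (ENSRNOG00000008057, chromosome 7), was not called either. The CL rats had 0.32, 0.62 and 0.35 FPKM, whereas the FL rats had 0.13, 0.09 and 0.47 FPKM. FL2 and FL5 again lay below every CL rat, and FL12 lay within the CL range. The means of the CL and FL groups were 0.430 ± 0.165 and 0.230 ± 0.209 FPKM (SD, n = 3 each). The log2 difference was -0.82 (SE 0.48, 95% interval -1.93 to 0.29, adjusted p = 0.259 by limma). It was -1.30 without FL12, -0.51 without FL5, -0.22 with a pseudocount of 1 and -1.48 with quantile normalization, with adjusted p between 0.0784 and 0.526 over the alternatives. FL12 had 5.22 times the Krt7 level and 2.72 times the Krt19 level of FL5. The name ductular reaction is therefore not borne out by a rise of Krt7 or Krt19 over the 3 FL rats, and what follows refers to the genes and not to a histological change.

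Krt8, the type II keratin of hepatocytes (ENSRNOG00000009779, chromosome 7), was higher in the FL group but under the 2-fold limit. It stood at 30.01, 22.78 and 24.40 FPKM in the CL rats, and at 35.45, 58.59 and 53.84 FPKM in the FL rats. The groups did not overlap, and FL2 was nearest to the CL rats. The means were 25.7 ± 3.79 and 49.3 ± 12.2 FPKM (SD, n = 3 each), with a log2 difference of 0.91 (SE 0.20, 95% interval 0.44 to 1.38, adjusted p = 0.0214 by limma). That is 1.88-fold on the log2 scale. Without CL5 (log2 difference 1.03) or without FL2 (1.13) Krt8 passed the 2-fold limit and was called. With median scaling, quantile normalization, or without CL6, CL7, FL5 or FL12, its adjusted p exceeded 0.05, within a range of 0.00529 to 0.0825 over the alternatives.

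Krt18, the type I partner of Krt8 (ENSRNOG00000047393, chromosome 7), was higher in the FL group as well, again under the 2-fold limit. The CL rats had 48.46, 37.30 and 35.71 FPKM, and the FL rats had 62.35, 76.64 and 63.29 FPKM. All FL rats lay above all CL rats, and FL5 was highest, as for Krt8. The log2 difference was 0.74 (SE 0.15, 95% interval 0.38 to 1.10, adjusted p = 0.0169 by limma), which is 1.67-fold. The adjusted p exceeded 0.05 with median scaling and without CL6, CL7 or FL5 (range over the alternatives 0.0158 to 0.0720). Krt8 and Krt18 kept a positive log2 difference in each alternative tried.

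Whether biliary keratins changed against hepatocyte keratins was asked within each library, where a factor common to the library drops out apart from the added 0.1 FPKM. The log2 ratio of Krt7 to Krt8 was -6.16, -4.99 and -5.77 in the CL rats, and -7.27, -8.27 and -6.56 in the FL rats. Every FL rat lay below every CL rat. In FPKM, the level of Krt8 was 93.8, 36.7 and 69.7 times that of Krt7 in the CL rats, and 273, 651 and 115 times in the FL rats. The mean ratio differed by -1.73 on the log2 scale (exact two-sided permutation test, p = 0.1, n = 3 each), and by -1.11 with a pseudocount of 1. With 3 rats against 3, 0.1 is the smallest p that this test can give, so no ratio could pass 0.05. The -1.73 came from both genes, since the log2 difference was -0.82 for Krt7 and 0.91 for Krt8.

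The log2 ratio of Krt19 to Krt18 was -6.22, -5.70 and -5.68 in the CL rats, and -6.80, -7.29 and -5.77 in the FL rats. FL2 and FL5 lay below the CL rats, and FL12 lay within them. The means differed by -0.76 (exact two-sided permutation test, p = 0.2, n = 3 each), and by -1.18 without FL12 or -0.42 without FL5. With quantile normalization they differed by -1.29 (exact permutation p = 0.1). Most of the -0.76 came from Krt18, whose own log2 difference was 0.74, against -0.01 for Krt19. The log2 ratio of Krt8 to Krt18, the hepatocyte pair, had means of -0.65 ± 0.09 and -0.48 ± 0.30 (SD, n = 3 each). These overlapped, with a difference of 0.17 (exact two-sided permutation test, p = 0.4). Without FL2 this difference was 0.34, and without FL12 it was 0.05. Adjusted over the 3 ratios by the Benjamini-Hochberg method, p was 0.3 for both biliary ratios and 0.4 for the hepatocyte pair. The 3 ratios share genes and rats, and their differences were not tested against each other.

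**Figure D2:**
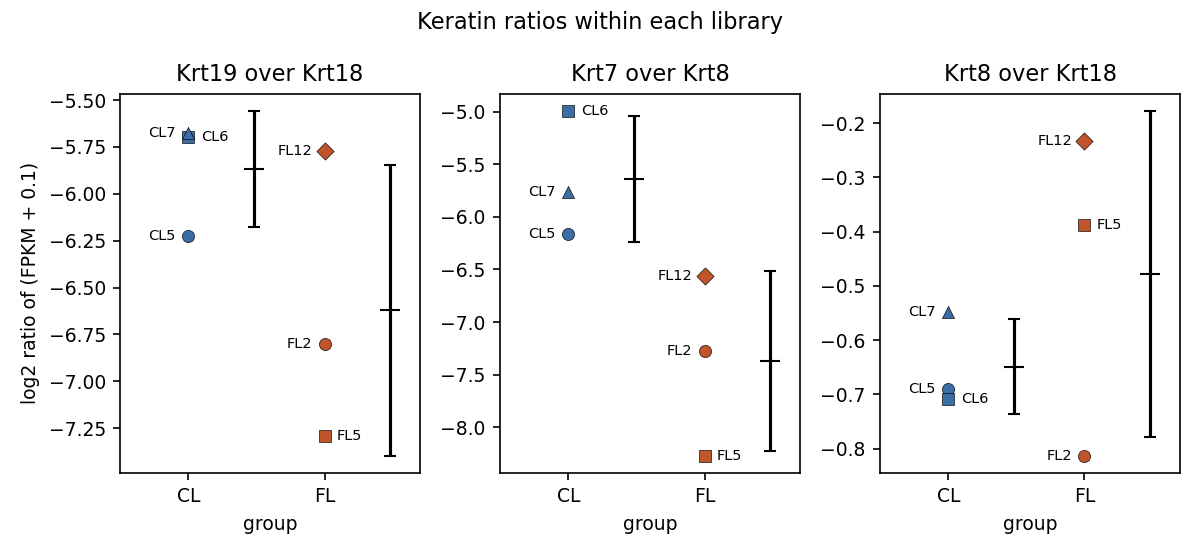
Log2 ratio of (FPKM + 0.1) between keratins in each library, by group, with a separate vertical axis for each ratio. Points are rats, and bars beside them are group means with SD (n = 3 each). The FL rats lie below all CL rats for Krt7 over Krt8, while for Krt19 over Krt18 rat FL12 lies among the CL rats.

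Cd24 encodes a small glycosylphosphatidylinositol-anchored surface protein of progenitor and ductular cells, also carried by B lymphocytes and neutrophils (ENSRNOG00000000321, chromosome 20). It was the only member called. The CL rats had 0.36, 0.39 and 0.42 FPKM, and the FL rats had 0.81, 0.87 and 2.05 FPKM. All FL rats lay above all CL rats, and FL12 stood well above FL2 and FL5. The means were 0.390 ± 0.0300 and 1.24 ± 0.699 FPKM (SD, n = 3 each), with a log2 difference of 1.34 (SE 0.36, 95% interval 0.52 to 2.16, adjusted p = 0.0372 by limma). That is 2.53-fold on the log2 scale. The call ended with a pseudocount of 1 (log2 difference 0.65), with no filter on low values, with median scaling (1.14) and with quantile normalization (0.75). It also ended without CL5 (1.29), CL6 (1.34), CL7 (1.38), FL5 (1.52) or FL12 (0.94). The adjusted p ranged from 0.0278 to 0.210 over the alternatives, and the log2 difference was positive in each.

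Markers of B lymphocytes and neutrophils were read beside Cd24, and their part in its difference was not tested. Of the 5 B lymphocyte genes read, 3 were tested and 1 was called higher, Blnk, an adaptor of B cell receptor signalling and the most abundant of the list in the FL rats, where Cd79a was so in the CL rats (2 were called without FL12). Blnk stood at 0.22, 0.32 and 0.38 FPKM in the CL rats and 1.95, 5.27 and 3.60 FPKM in the FL rats (log2 difference 3.10, adjusted p = 0.00339 by limma). The B cell genes Pax5 and Ms4a1 reached at most 0.27 FPKM in any rat and were too low to be tested. The remaining tested genes, Cd79a (log2 difference 0.96, adjusted p = 0.0782 by limma) and Cd79b (0.77, adjusted p = 0.348), were not called. The list summed to 0.85, 1.15 and 1.02 FPKM in the CL rats, and to 3.89, 6.76 and 4.68 FPKM in the FL rats. Blnk was the largest part of each FL sum. Of the 8 neutrophil genes, 5 were tested and 3 were called higher (S100a8, S100a9 and Csf3r), with S100a8 the most abundant by the mean of each group. When any single rat was left out, and with median scaling, 1 neutrophil gene was called, and with quantile normalization 0 were. That list summed to 0.38, 1.28 and 1.46 FPKM in the CL rats, and to 6.31, 3.46 and 4.56 FPKM in the FL rats. Ly6g6c was at 0 in all rats, and the granule genes Mpo and Elane were at or below 0.06 FPKM.

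Epcam, an adhesion molecule of epithelial cells that marks bile ducts and liver progenitors (ENSRNOG00000015667, chromosome 6), was the most abundant biliary member. The CL rats had 4.22, 6.02 and 4.47 FPKM, and the FL rats had 4.27, 6.81 and 7.80 FPKM. FL5 and FL12 lay above the CL rats and FL2 among them. The log2 difference was 0.33 (SE 0.24, 95% interval -0.23 to 0.88, adjusted p = 0.360 by limma), and it differed from the median of all genes by 0.04. Over the alternatives it ran from 0.04 with quantile normalization to 0.58 without FL2. It was the only biliary member above 1 FPKM in every rat.

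Prom1 encodes the pentaspan membrane protein CD133 of ductular and progenitor cells (ENSRNOG00000003098, chromosome 14). It stood at 0.17, 0.09 and 0.15 FPKM in the CL rats, and at 0.20, 0.31 and 0.52 FPKM in the FL rats. The groups did not overlap, but FL2, the lowest FL rat, lay close to CL5, the highest CL rat. The log2 difference of 0.86 (SE 0.39, 95% interval -0.05 to 1.77, adjusted p = 0.161 by limma) was not called, and it ran from 0.23 to 1.21 over the alternatives.

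Sox9 encodes the transcription factor that marks the ductal plate and the ductal epithelium (ENSRNOG00000002607, chromosome 10). Its levels were 0.17, 0.42 and 0.09 FPKM in the CL rats, and 0.32, 0.43 and 1.02 FPKM in the FL rats. CL6 was close to FL5 and above FL2, so the groups overlapped. The log2 difference was 1.07 (SE 0.51, 95% interval -0.09 to 2.24, adjusted p = 0.168 by limma), and it was not called. Over the alternatives it ran from 0.36 (pseudocount of 1) to 1.47 (without CL6), and was 0.91 with median scaling, 0.51 with quantile normalization, 0.75 without CL7 and 0.66 without FL12.

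Cftr encodes the chloride channel through which cholangiocytes, and not hepatocytes, secrete fluid into bile (ENSRNOG00000055103, chromosome 4). It was the lowest member in the CL group, at 0.12, 0.07 and 0.07 FPKM in the CL rats, against 0.20, 0.34 and 0.91 FPKM in the FL rats. All FL rats lay above all CL rats, and FL12 stood apart from FL2 and FL5. The log2 difference was the largest of the 9, 1.46 (SE 0.49, 95% interval 0.33 to 2.60, adjusted p = 0.0745 by limma), and it was not called. Without FL2 it was called (log2 difference 1.85, adjusted p = 0.0313), in a range of adjusted p from 0.0313 to 0.260 over the alternatives. Without FL12 the log2 difference was 0.97.

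Among the 7 biliary members (the 9 without Krt8 and Krt18), FL12 was the highest FL rat in 7 and the highest of all 6 rats in 6, the exception being Krt7. Of all 14864 genes, FL12 was the highest FL rat in 41.1% and the highest of all rats in 34.6%. It was the highest FL rat in 7 of 8 mesothelial genes and in 10 of 15 genes of the list of other cholangiocyte keratins and surface genes. In the remaining biliary lists it was so in 6 of 10 cilium genes, 6 of 13 bile secretion genes and 8 of 17 signals. The numbers were 6 of 15 for secreted and acute genes and 3 of 11 for transcription factors. For other cell types they were 4 of 16 hepatocyte rows, 3 of 9 stellate, 2 of 6 endothelial, 2 of 5 neutrophil and 1 of 6 cycling genes. Pancreatic or gut genes had 2 of 3, B lymphocyte genes 1 of 3 and macrophage genes 0 of 7. The level in FL12 was 10.5 times the CL mean for Cftr, 5.26 times for Cd24, 4.50 times for Sox9 and 3.80 times for Prom1. For Krt19 this was 1.80 times, and for Krt7 1.09 times. FL2 was the lowest FL rat in 5 of these members, and FL5 in Krt7 and Krt19. Krt8 and Krt18 differed from this order, with their highest level in FL5. The 7 biliary members summed to 5.91, 8.23 and 6.15 FPKM in the CL rats, and to 6.39, 9.24 and 13.8 FPKM in the FL rats. The hepatocyte keratins summed to 78.5, 60.1 and 60.1 FPKM in the CL rats and 97.8, 135 and 117 FPKM in the FL rats. The relative depth of FL12, read from the low values of U6 genes, was 0.677 of that of CL5 and equal to that of FL2.

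The order of CL means, as levels per length in FPKM, was Krt18, Krt8, Epcam, Krt19, Krt7, Cd24, Sox9, Prom1 and Cftr. Krt19, Krt7 and Cd24 were close in the CL group (0.590 ± 0.0361, 0.430 ± 0.165 and 0.390 ± 0.0300 FPKM, SD, n = 3), and the Krt7 range took in the values of Cd24. Sox9, Prom1 and Cftr, at 0.227 ± 0.172, 0.137 ± 0.0416 and 0.0867 ± 0.0289 FPKM, were not separated beyond their spread. In the FL group the order was Krt18, Krt8, Epcam, Cd24, Krt19, Sox9, Cftr, Prom1 and Krt7. Krt7 went from the fifth place to the last, and Cd24 from the sixth to the fourth. Below Epcam, the neighbours in the FL order overlapped in their ranges. The CL mean was under 1 FPKM in 6 of the 7 biliary members.

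The table held 24 keratin genes, of which 11 had a mean of 0.1 FPKM or more and 3 of 1 FPKM or more, Krt18, Krt8 and Krt79. Krt79 was named for its level after its values were seen, and stood at 5.66, 5.66 and 4.52 FPKM in the CL rats and 10.2, 7.14 and 7.33 FPKM in the FL rats (log2 difference 0.62, adjusted p = 0.0445 by limma and up to 0.295 over the alternatives, under the 2-fold limit). Of the 11, only Krt10 was called (log2 difference 1.50, adjusted p = 0.0355 by limma), a keratin of stratified epithelium at 0.88 FPKM or less in each rat, also named after its values were seen. Its call ended in some of the alternatives (adjusted p up to 0.152, log2 difference down to 0.46), and 1 of 11 is near the 9.29% of all genes. How reads of near-identical keratin genes or their pseudogenes were shared was not stated, apart from the use of unique alignments, so low keratin values are uncertain in this respect.

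FPKM were not scaled between rats, and the median log2 difference of all genes was 0.29. It was 0.08 with median scaling and -0.04 with quantile normalization. Relative to 0.29, the log2 differences were 1.17 for Cftr, 1.05 for Cd24, 0.79 for Sox9, 0.62 for Krt8, 0.57 for Prom1 and 0.45 for Krt18. Epcam lay at 0.04, Krt19 at -0.30 and Krt7 at -1.11 on this scale. No member changed the sign of its log2 difference under either scaling.

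The protein-coding genes with a profile most like each keratin and Epcam were taken from 10160 genes whose mean was 1 FPKM or more, by the root mean square difference of log2 values over the 6 rats after each gene's mean was taken off. For Krt19 they were Ppp1r3b (0.12), Asap3, Sssca1, Eef1e1 and Bysl (0.16). Ppp1r3b, a glycogen-targeting subunit of protein phosphatase 1, stood at 28.24, 33.11 and 30.03 FPKM in the CL rats and at 19.75, 19.18 and 48.81 FPKM in the FL rats. It shared with Krt19 low values in FL2 and FL5 and the highest value in FL12. For Krt7 they were Tsc22d3 (0.19), Irx1, Polg2, Fmo1 and Olr1353 (0.34). Tsc22d3, a glucocorticoid-induced gene, had 3.80, 5.48 and 3.94 FPKM in the CL rats and 2.60, 1.66 and 5.96 FPKM in the FL rats. For Epcam they were N6amt1 (0.08), Prmt3, Zfp300, Nol6 and Dhx37 (0.09). For Krt8 they were Mest (0.06), Cyp7b1, Tia1, Far1 and Sept8 (0.09), and for Krt18 Cyth1 (0.04), Dpysl3, Ubash3b, Slfn5 and Tpd52 (0.07). Krt8, Krt18 and Epcam, the members in this pool, were not among the 5 nearest genes of any of these.

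Mesothelial cells of the liver capsule carry Krt7 and Krt19 as well, and a list of their markers was read beside these keratins. Of 10 genes listed, 9 were in the table and 8 were tested. None was called (0 of 8 by limma, with 1 higher and 0 lower at an unadjusted p under 0.05), and their median log2 difference was -0.56 against 0.29 over all genes. Without FL2, 1 was called higher, and without FL12, 1 was called lower. The most abundant was Gpm6a, at 3.61, 2.15 and 5.41 FPKM in the CL rats and 2.70, 2.70 and 2.37 FPKM in the FL rats. The list summed to 7.12, 7.12 and 9.40 FPKM in the CL rats and to 4.31, 4.58 and 8.75 FPKM in the FL rats, and no listed gene in the table was at 0 in all rats. Of the 8 genes, 7 were highest in FL12 among the FL rats.

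All 9 genes of this list in the table were compared with the profiles of Krt7 and Krt19, and they did not move alike. Msln, which encodes mesothelin, had 1.80, 1.83 and 1.91 FPKM in the CL rats and 0.40, 0.65 and 2.31 FPKM in the FL rats. FL2 and FL5 lay below all CL rats and FL12 above them for Msln, Upk3b and Muc16, as for Krt19. FL12 lay within the CL range for Lrrn4 and Bnc1, as for Krt7, and all FL rats lay below the CL rats for Upk1b. Wt1 went the other way, with 0.18, 0.08 and 0.01 FPKM in the CL rats and 0.18, 0.43 and 0.54 FPKM in the FL rats (log2 difference 1.37, adjusted p = 0.0927 by limma), and Rspo1 had a log2 difference of 0.88 (adjusted p = 0.321). The root mean square difference from the Krt7 profile was 0.26 for Upk3b, 0.35 for Lrrn4, 0.40 for Muc16, 0.40 for Msln, 0.42 for Bnc1, 0.47 for Upk1b, 0.83 for Gpm6a, 0.95 for Rspo1 and 1.26 for Wt1. Among the members it was 0.47 for Krt19, 0.71 for Epcam, 0.97 for Prom1, 0.99 for Sox9, 1.01 for Krt18, 1.05 for Krt8, 1.11 for Cd24 and 1.21 for Cftr. From the Krt19 profile it was 0.18 for Muc16, 0.35 for Bnc1, 0.50 for Upk3b, 0.61 for Msln, 0.63 for Lrrn4, 0.63 for Gpm6a, 0.64 for Upk1b, 0.71 for Rspo1 and 0.88 for Wt1. Among the members it was 0.38 for Epcam, 0.47 for Krt7, 0.52 for Prom1, 0.61 for Krt18, 0.63 for Krt8, 0.68 for Cd24, 0.70 for Sox9 and 0.79 for Cftr. The part of mesothelial RNA in the levels of Krt7 and Krt19 was not tested.

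**Figure D3:**
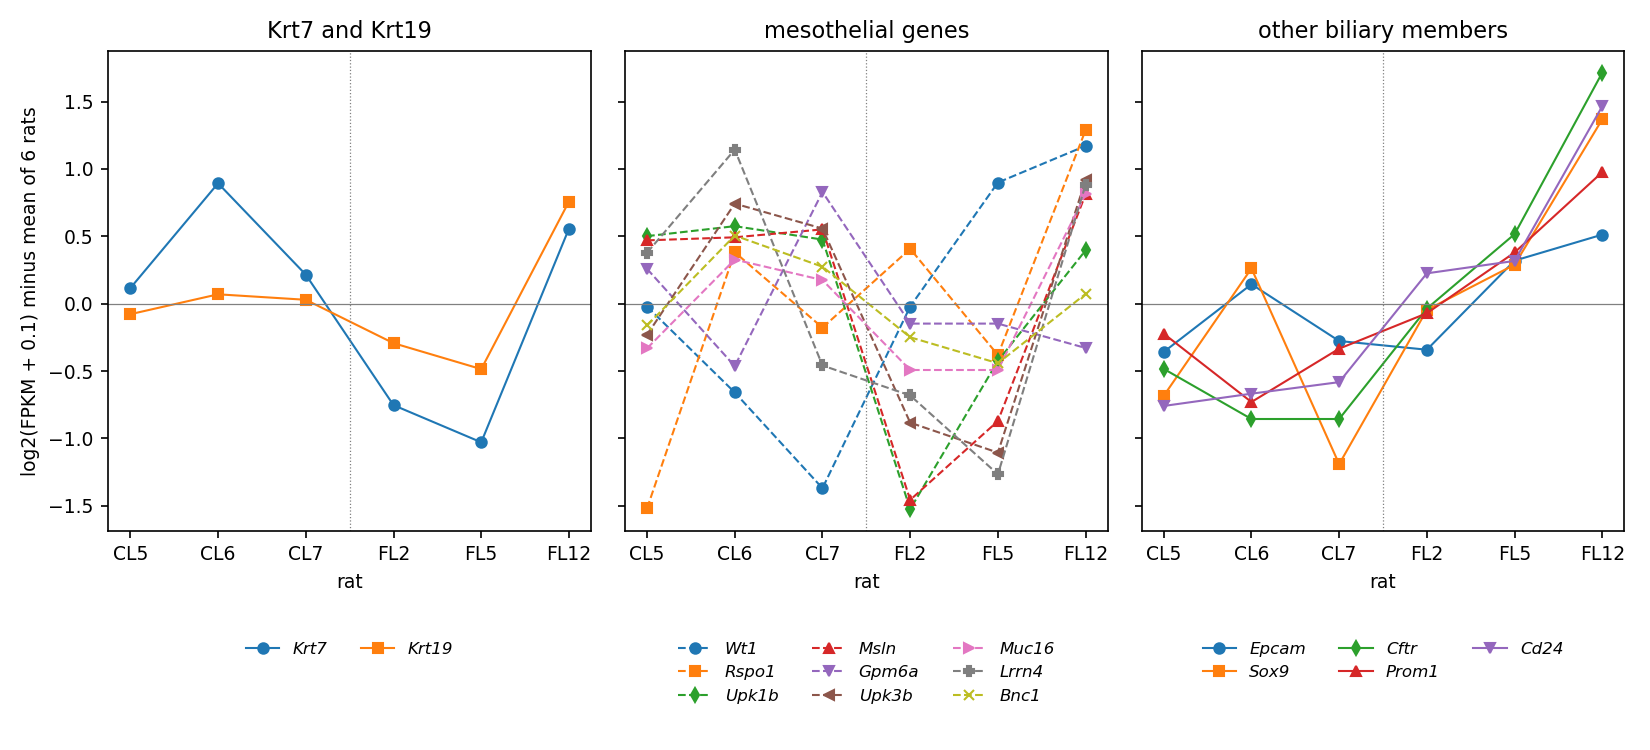
Log2(FPKM + 0.1) in each rat after the mean of the 6 rats was taken off, for Krt7 and Krt19 (left), all 9 mesothelial genes in the table (middle) and the other biliary members (right). Each line is a gene, and it joins rats that have no order. On the left FL2 and FL5 lie below 0 and FL12 above it, in the middle the genes differ in their order, and on the right FL12 is the highest rat of each gene.

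Genes that work beside the members were read from 6 further lists with 104 genes, of which 94 were in the table and 81 were tested. Of these, 29 were called higher (35.8%), against 9.29% of all genes, and the median log2 difference was 0.91. None was called lower (0 by limma, and 3 at an unadjusted p under 0.05), and 1 was without CL5 or without FL2. The number called higher was 17 without CL5, CL6 or FL12, 14 without CL7 or FL5, and 34 without FL2, and 21 with median scaling and 11 with quantile normalization (13.6%, where 3.05% of all genes were called higher). The 8 genes called in each of 14 alternatives were Ncam1, Cd44, Kif12, Bicc1, S100a6, S100a11, Cxcl16 and Dmbt1, of which S100a6 and Cxcl16 were named after their values were seen. The lists were put together from knowledge of bile ducts and with earlier results of these data known, so nothing particular to them is read from the 35.8%. Some of their genes, such as Cd44, Ncam1 and Abcc3, are also active in leukocytes, stellate cells or hepatocytes, and Hes1, Lcn2, Spp1, Met and Hgf are named in the study of these livers too.

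Secreted and acute genes of reactive ductules had the highest median of the 6 lists. Of 18 listed genes, 15 were tested and 11 were called higher, with a median log2 difference of 2.0. Spp1, which encodes osteopontin, a matrix protein of ductular cells and macrophages, had 0.37, 2.81 and 0.74 FPKM in the CL rats and 7.34, 60.59 and 31.12 FPKM in the FL rats (log2 difference 4.53, SE 0.85, adjusted p = 0.0119 by limma). Lcn2, an iron-siderophore-binding protein of the acute phase, had the highest FL mean of the list, below Spp1 in FL5, whereas Wfdc2 was the most abundant in the CL rats. Wfdc2 went the other way, with 11.23, 7.29 and 6.28 FPKM in the CL rats and 7.22, 3.63 and 4.08 FPKM in the FL rats (log2 difference -0.74, unadjusted p = 0.0369, adjusted p = 0.117 by limma), and was not called, but without FL2 1 gene of the list was called lower. Lcn2 had 1.35, 1.35 and 3.75 FPKM in the CL rats and 490.47, 13.14 and 168.35 FPKM in the FL rats (log2 difference 5.68, SE 1.15, adjusted p = 0.0152). The order of the FL rats for both genes was not that of Krt19. Dmbt1, a mucin-like scavenger protein of ductular epithelium, had 1.23, 1.69 and 1.43 FPKM in the CL rats and 3.92, 8.78 and 13.77 FPKM in the FL rats (log2 difference 2.36, SE 0.40, adjusted p = 0.00912). The matrix protease gene Mmp7 was listed at 0 in all CL rats and at 0.21, 0.54 and 0.27 FPKM in the FL rats. S100a11 (log2 difference 2.34) and the monocyte chemokine gene Ccl2 (2.33) were called too. Without CL5, CL6, CL7, FL5 or FL12, and with quantile normalization, 7 genes of the list were called higher.

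The bile secretion genes included the partners of Cftr in fluid secretion. Of 18 listed genes, 13 were tested and 4 were called higher, with a median log2 difference of 0.90. Sctr, the secretin receptor, which acts upstream of Cftr in cholangiocytes, had 0.08, 0.29 and 0.24 FPKM in the CL rats and 0.38, 1.97 and 1.73 FPKM in the FL rats (log2 difference 2.08, SE 0.59, adjusted p = 0.0442 by limma). Like Cftr, it was higher in every FL rat than in any CL rat, but FL5 and not FL12 was highest. Abcc3, a basolateral export pump for conjugated bile acids in cholangiocytes and hepatocytes, had a log2 difference of 2.23 (adjusted p = 0.0280), Fxyd2, a subunit of the sodium pump, 2.14 (0.0392), and Car2, a carbonic anhydrase, 1.53 (0.0158). The most abundant gene of the list, the nucleotide receptor gene P2ry2, differed by 0.88 (adjusted p = 0.0352), under the 2-fold limit. Adcy8 was at 0 in all rats. No gene of the list was called without CL7, without FL5 or with quantile normalization, 1 was called without CL5, and 2 without FL12 or with median scaling.

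Among other keratins and surface genes of cholangiocytes, 15 of 20 listed genes were tested and 3 were called higher, with a median log2 difference of 0.80. Ncam1, an adhesion molecule of reactive ductules that stellate cells also carry, had 0.10, 0.18 and 0.11 FPKM in the CL rats and 0.98, 3.97 and 4.21 FPKM in the FL rats (log2 difference 3.55, SE 0.52, adjusted p = 0.00566 by limma). Cd44, the hyaluronan receptor, also of leukocytes, differed by 2.23 (adjusted p = 0.00414), and St14, the epithelial protease matriptase, by 1.57 (0.0167). The most abundant, Cdh1 (E-cadherin), which hepatocytes share, differed by -0.05 and was not called. Krt17 was at 0 in all rats. Without FL2, 5 genes were called higher, and 2 were called without CL7, FL5 or FL12 or with quantile normalization.

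Transcription factors of the biliary lineage, the class of Sox9, had 11 of 15 listed genes tested and 4 called higher, with a median log2 difference of 0.42. Grhl2, a regulator of epithelial junctions, had 0.10, 0.10 and 0.19 FPKM in the CL rats and 0.42, 0.62 and 0.99 FPKM in the FL rats (log2 difference 1.71, SE 0.38, adjusted p = 0.0201 by limma). Hes1, a target of Notch signalling, differed by 1.53 (adjusted p = 0.0136), Tbx3 by 1.32 (0.0176) and Glis3 by 1.22 (0.0442). Hhex, the most abundant in the CL rats (Onecut1 had the highest FL mean), had 13.40, 41.48 and 35.81 FPKM in the CL rats and 13.03, 9.08 and 12.90 FPKM in the FL rats, with every FL rat below every CL rat, and was not called (log2 difference -1.23, adjusted p = 0.0642). No gene of the list was called higher without CL6, without CL7 or with quantile normalization, 1 was called without FL5 and 2 without CL5 or FL12. Without CL5, 1 gene was called lower.

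Genes of the primary cilium and the ductal plate, which cholangiocytes need and hepatocytes lack as an organelle, had 10 of 10 listed genes tested and 3 called higher, with a median log2 difference of 0.91. Bicc1 had 0.90, 1.12 and 0.84 FPKM in the CL rats and 2.27, 3.66 and 6.29 FPKM in the FL rats (log2 difference 1.88, SE 0.34, adjusted p = 0.0106 by limma). Its FL rats had the same order as those of Cftr. Kif12, a kinesin, differed by 2.29 (adjusted p = 0.00262) and Tmem67, a protein of the ciliary transition zone, by 1.02 (0.0218). Pkd1, the most abundant in the CL rats (Bicc1 had the highest FL mean), differed by 0.40 and was not called. The count was 2 with either scaling and without CL5, CL6, CL7, FL5 or FL12.

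Signals that act on ductules and their precursors had 17 of 23 listed genes tested and 4 called higher, with a median log2 difference of 0.39, near that of all genes. Tnfsf12, which encodes the cytokine TWEAK, a mitogen of progenitor cells, had 1.56, 2.32 and 1.84 FPKM in the CL rats and 3.95, 5.59 and 4.66 FPKM in the FL rats (log2 difference 1.27, SE 0.20, adjusted p = 0.00681 by limma). Fgfr2, the receptor of Fgf7, differed by 1.11 (adjusted p = 0.00434). Ctgf and Cyr61, targets of Yap1, differed by 1.37 (0.0388) and 1.20 (0.0490). Yap1 itself, the most abundant of the list by the mean of each group, had a log2 difference of -0.06 and was not called. The count was 2 without CL5, CL6, FL5 or FL12, 1 with median scaling and 0 with quantile normalization.

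**Figure D4:**
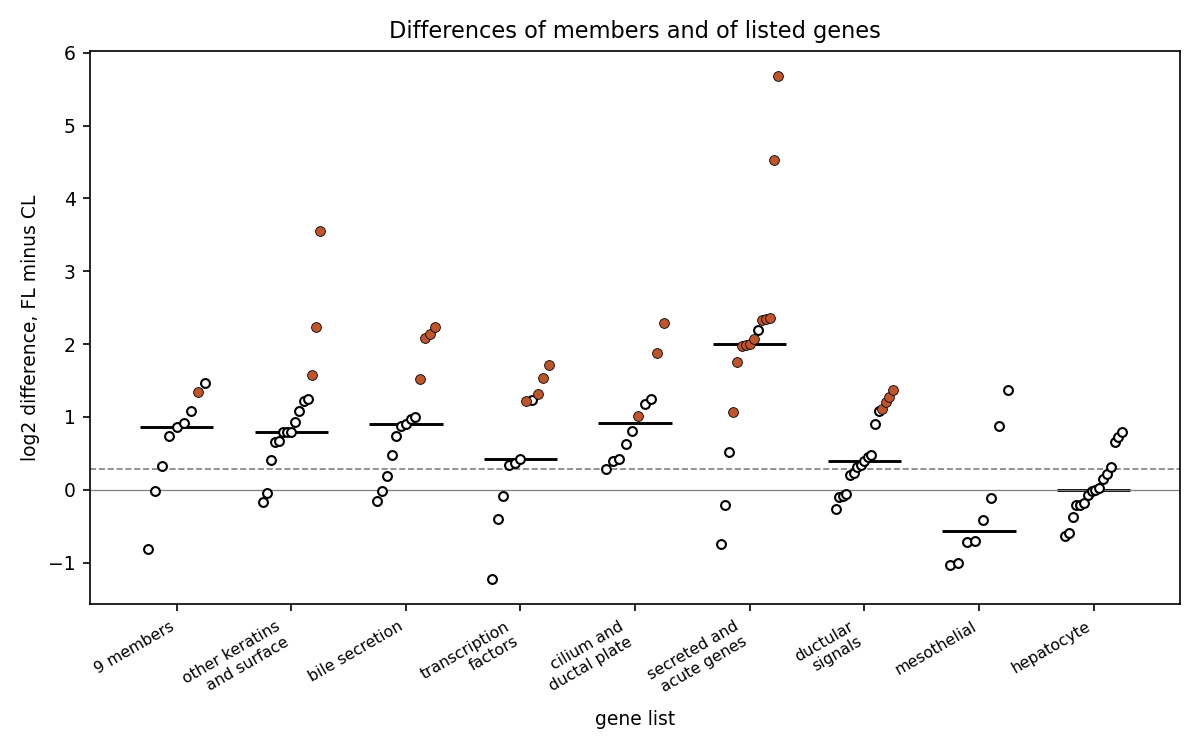
Log2 difference (FL minus CL) of each tested gene, for the 9 members, the 6 further biliary lists, mesothelial genes and hepatocyte genes. Filled points were called, open points were not, solid lines are medians, and the dashed line is the median of all genes, 0.29. The medians are 0.86 for the members, 2.0 for secreted and acute genes, -0.56 for mesothelial genes and -0.01 for hepatocyte genes. Stellate, neutrophil, cycling and macrophage genes are not drawn, and had medians of 2.28, 1.72, 1.59 and 1.13.

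Other cell types of the liver were read in the same way, and their part in the member differences was not tested. Median log2 differences were 2.28 for stellate cell or myofibroblast genes, 1.72 for neutrophil, 1.59 for cycling and 1.18 for pancreatic or gut genes. Macrophage genes had 1.13, B lymphocyte genes 0.96 and endothelial genes 0.31. Apart from the endothelial one, these medians were above the 0.86 of the 9 members. The 15 hepatocyte genes had 16 rows, G6pc having 2, and all were tested and 0 called (by limma, with 2 higher and 0 lower at an unadjusted p under 0.05; without FL2, 1 was called higher), with a median log2 difference of -0.01. Their most abundant gene was Alb, the albumin gene, as the labelled tissue has, and the list summed to 53929, 51294 and 51880 FPKM in the CL rats and 44118, 45950 and 44562 FPKM in the FL rats. Stellate cell or myofibroblast genes, which make the scar matrix, had 6 of 9 tested called higher, among them Col3a1, the most abundant, at 46.54, 51.80 and 48.65 FPKM in the CL rats and 140.46, 341.67 and 338.60 FPKM in the FL rats. Col1a2, also of this list, was at 0.18 FPKM or less in each rat and too low to be tested. Col1a1 stood at 17.00, 101.22 and 73.73 FPKM in the FL rats, and why the table gives Col1a2 so much lower was not tested. The stellate sums were 82.2, 86.0 and 80.2 FPKM in the CL rats and 203, 545 and 498 FPKM in the FL rats. FL2 was thus lowest of the FL rats here, as for Krt8, Krt18 and 5 biliary members, whereas FL12 did not stand apart from FL5.

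Macrophage genes had 4 of 7 called higher (Marco, Cd68, Itgam and Csf1r), while Clec4f, the most abundant in the CL rats (Marco had the highest FL mean), was not called (log2 difference -0.02), and their sums in the FL rats were 220, 196 and 121 FPKM against 93.6, 89.0 and 92.0 FPKM in the CL rats. Endothelial genes had 1 of 6 called higher (Vwf, log2 difference 1.05, with Kdr most abundant in the CL rats and Lyve1 by the FL mean), a call that ended without CL5, CL6, CL7, FL5 or FL12 and with either scaling. Their sums were 73.7, 72.2 and 64.8 FPKM in the CL rats and 88.9, 75.5 and 83.4 FPKM in the FL rats. Genes of cycling cells had 2 of 6 called higher (Mki67, the most abundant by the mean of each group, and Birc5), with sums of 2.75, 5.36 and 3.58 FPKM in the CL rats and 4.69, 22.4 and 19.4 FPKM in the FL rats. Without FL2 all 6 cycling genes were called higher, 1 was called without CL6 or with median scaling, and 0 without CL5, CL7, FL5 or FL12 or with quantile normalization. Of pancreatic or gut genes, 3 of 6 were tested, with Lgals2, the most abundant in the FL rats, called higher (log2 difference 2.71) and the elastase gene Cela1, the most abundant in the CL rats, called lower (log2 difference -3.44). These sums were 3.13, 3.07 and 2.80 FPKM in the CL rats and 2.20, 2.65 and 4.12 FPKM in the FL rats, and the gut factor gene Cdx2 was at 0.04 FPKM or less in each rat.

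Promoter sequences were read from RefSeq (rat build GRCr8), as windows from 250 bases before to 50 bases after a gene's start. They were matched by symbol for 6 of the 9 members, with 7 windows in all, 2 of them of Prom1. Krt7, Krt19 and Sox9 had none. Motifs were searched on both strands. The GC box GGGCGG was in 5 of the 7 windows (Cd24, Cftr, Epcam, Krt18 and 1 window of Prom1), against 33.1% of all 33469 windows. The letters TATAAA of the TATA box were in the Krt8 window alone, 104 bases before the start, against 14.2% of all windows at any position. The letters ACAAT, the core bound by SOX factors, were in the Cd24 window alone, against 33.7% of all windows. GGAATG, bound by TEAD factors, was in 0 of 7 windows (14.2% of all), and TGGGAA, bound by RBPJ, in 0 of 7 (25.7%).

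The stretches from 200 to 76 bases before the start are shown for the hepatocyte keratin pair, whose levels were higher together in the FL group, and for Cd24, the called member. Krt8 lies on the minus strand at chr7:135010415-135010539, Krt18 on the plus strand at chr7:135035968-135036092, and Cd24 on the plus strand at chr20:48656277-48656401. Capitals mark TATAAA overlapping its reverse complement TTTATA in Krt8, and GGGCGG in Krt18 and Cd24. The sequences run 5′ to 3′ on the strand of the gene. The matches are a description of the letters and not of a bound site.
Krt8: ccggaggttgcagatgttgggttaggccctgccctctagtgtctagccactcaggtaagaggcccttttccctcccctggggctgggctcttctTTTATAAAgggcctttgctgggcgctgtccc
Krt18: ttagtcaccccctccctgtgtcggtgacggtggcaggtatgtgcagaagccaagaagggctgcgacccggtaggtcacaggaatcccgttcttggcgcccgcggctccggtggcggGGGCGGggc
Cd24: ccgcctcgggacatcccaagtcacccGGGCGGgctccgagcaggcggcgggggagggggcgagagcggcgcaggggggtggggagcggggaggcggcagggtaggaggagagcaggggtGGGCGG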

How the data were processed

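Liver RNA of 6 rats was sequenced, 3 in each group, and groups were taken from the labels. The authors removed ribosomal RNA before sequencing. They used FASTX-Toolkit for trimming and TopHat2 for alignment, and uniquely aligned reads were counted for each gene. The deposited unit is FPKM, relative to transcript length and library size, with 2 decimals. No scaling between rats was stated. The sources name GRCh38, a human build, while the gene identifiers are Ensembl rat identifiers; the annotation release and the use of strand in counting were not given in the sources used here. The table held 2 more columns of values whose names match no sample, and these were left out. The authors' own test was edgeR on read counts; FPKM are not counts, so another test was used.

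The FL and CL groups were compared with limma on log2(FPKM + 0.1), where the prior variance was fitted as a trend on the mean. The test took in the 14864 genes that averaged 0.1 FPKM or more, and p-values were adjusted over all of them by the Benjamini-Hochberg method. Genes were called at an adjusted p under 0.05 and at least 2-fold. Standard errors and 95% intervals are limma's moderated ones. The limma fit and the call rule were tested on simulated data. Ratios of keratins used an exact two-sided permutation test over rats. Lists were read as counts, medians and sums, with no test. Libraries were checked for duplicates, and pairs of rats shared identical values above 0 in 0.932% to 2.71% of genes.

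Other settings tried were a pseudocount of 1 or 0.01, a mean of 1 FPKM or more as the filter or no filter, median scaling (over 9201 genes above 1 FPKM in every rat), quantile normalization, no trend or a robust prior, no fold limit, and leaving out each rat in turn. Members and lists were chosen with earlier results of these data known. The genes named were the 9 members, up to 6 called genes of largest log2 difference and the most abundant gene of each list (by its mean in the CL group, the FL group or all 6 rats), and the 5 genes of nearest profile for Krt19, Krt7, Epcam, Krt8 and Krt18. Some listed genes at or near 0 were named besides, and other exceptions are stated beside them.

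Read totals were not used. The most frequent value among the U6 values below their median was taken as the step of 1 fragment in a rat. It was 0.21, 0.32 and 0.25 FPKM for CL5, CL6, CL7 and 0.31, 0.28 and 0.31 FPKM for FL2, FL5, FL12. Of the low U6 values, 62.5% (FL5) to 88.6% (CL6) were whole multiples of the step within 0.1 of a step. Relative depths were thus 1, 0.656, 0.84, 0.677, 0.75 and 0.677. On a transcript 10 times longer than U6, 1 fragment would be worth 0.021 to 0.032 FPKM. The fits ran in limma 3.58.1 under R 4.3.3. Other steps ran in Python 3.11.15, with scipy 1.17.1 for permutation tests, pandas 2.3.3 and numpy 2.4.6 for tables, and matplotlib 3.10.9 for plots.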

Additional observations from a re-analysis of the deposited data

How the results depend on the processing

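With 3 rats in each group, counts of called genes moved with the processing. Of all genes, 1381 were called higher and 139 lower. These became 462 and 72 with a pseudocount of 1, 453 and 231 with quantile normalization, and 2518 and 288 with no fold limit. The number called higher was 854 with the filter at 1 FPKM and 826 with median scaling (181 lower). Leaving out a rat gave 682 to 1833 genes called higher and 80 to 159 called lower. The cause of these shifts was not tested. Members called higher were 0 with a pseudocount of 1, with no filter, with the filter at 1 FPKM (which leaves only Krt8, Krt18 and Epcam to be tested), with median scaling and with quantile normalization, 3 with no fold limit, and 0 to 3 when a rat was left out. Members called lower were 0 in each alternative. The log2 difference of Krt19 turned from -0.01 to 0.019 with a pseudocount of 1, and ran from -0.40 to 0.23 when a rat was left out. The differences of the other 8 members and of the 3 keratin ratios kept their sign in each alternative. With 2 rats against 3, the exact test of a ratio cannot give a p under 0.2. No paired analysis was possible because only the number 5 occurs in both groups. Depth limits low levels, such as those of Cftr, Prom1, Sox9 and Krt7. Which member it limits most would depend on transcript length as well, and was not measured.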
